A study of Mus musculus with 12 samples.

Results

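The genes described here encode the subunits and inhibitors of NF-κB: the subunit genes Nfkb1, Nfkb2, Rel, Rela and Relb, the IκB family genes Nfkbia, Nfkbie, Nfkbiz and Bcl3, and Tnfaip3. Members were all probe sets that the array annotation assigns to these 10 symbols, alone or among several. The rule used names only and no measured value. It found 18 probe sets of 9 genes among the 45037 probe sets that remained after the array controls were left out, and none of them carried several symbols. Nfkb1 had no probe set under its symbol in the annotation table used and is not analysed here.

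NF-κB is a family of dimeric transcription factors that rest in the cytoplasm bound to IκB inhibitors. Toll-like receptors, CD40 and the antigen receptor activate the IκB kinase complex, which marks the inhibitors for degradation and frees the dimers to enter the nucleus. Several inhibitor genes are themselves induced by NF-κB and close a negative feedback loop. In B cells the pathway serves survival, activation by LPS through Tlr4, and the switch of immunoglobulin class.

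RNA of mouse splenic B cells, isolated by removing cells that bear CD43, was hybridised to single-channel Affymetrix mouse genome arrays. The genotypes were wild type and EFLmDREAM, a transgene of the calcium-binding transcriptional repressor DREAM, which Kcnip3 encodes. Cells of each genotype were either unstimulated (day 0) or cultured with LPS at 20 µg/ml and mouse recombinant IL-4 at 10 ng/ml and collected at day 2. Each of the 4 groups had 3 arrays, which the series calls independent biological replicates. No group was cultured to day 2 without LPS and IL-4. Changes over stimulation therefore cannot be told apart from changes with time in culture. The promoter that drives the transgene, the cells in which it is active, the number of founder lines, and the age and strain of the mice are not given in the sources used here. The comparison asks how the RNA of the pathway differs between the genotypes in each state and over stimulation.

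Values are log2 levels as deposited, and a difference of 1 is a doubling. Array medians lay between 5.97 and 6.05 in unstimulated and between 5.36 and 5.41 in stimulated arrays, so stimulation was measured after quantile normalization of all 12 arrays, and its results were read beside the deposited values and beside values with the array medians subtracted. Within groups, arrays correlated at 0.984 to 0.997. The actin 5′ minus 3′ signal, a measure of RNA or cRNA length, was −2.22 in wild type unstimulated replicate 1 and between −0.67 and −0.54 in the other unstimulated arrays. Among stimulated arrays it was −1.36 in wild type replicate 1, −0.98 in transgenic replicate 1 and between −0.79 and −0.43 in the others. Kcnip3 read 6.71 to 7.19 in unstimulated wild type and 7 to 7.28 in unstimulated transgenic arrays on its brighter probe set, and the genotypes overlapped. The difference was 0.23 ± 0.12 (SE, n = 3 per genotype, limma adjusted p = 0.279), and whether the probe set detects the transgene was not tested. Of the B cell markers, all 9 with a probe set lay above the array median in every group. As deposited, their mean level ran from 11.47 to 11.67 before and from 9.78 to 9.98 after stimulation, and 8 of the 9 were called lower after stimulation in each genotype.

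Markers of other cells moved with the genotype in the unstimulated samples. The mean log2 level of 11 granulocyte markers was 6.08 to 6.38 in wild type and 8.99 to 9.50 in transgenic arrays, and 10 of the 11 were called higher in transgenic cells. In the same comparison 11 of 12 monocyte and macrophage markers (means of 6.75 to 7 against 8.01 to 8.32), 6 of 7 erythroid markers (6.03 to 6.59 against 7.52 to 8.01) and 3 of 10 T and NK cell markers (6.59 to 6.91 against 7.14 to 7.28) were higher. After stimulation the granulocyte means were 4.80 to 4.88 in wild type and 5.2 to 5.39 in transgenic arrays, with 3 of 11 markers called higher. The monocyte and macrophage means were 5.44 to 5.62 against 5.91 to 6.20 with 3 of 12 called. No marker of erythroid cells (4.77 to 4.84 against 4.76 to 4.81) or of T and NK cells (5.38 to 5.46 against 5.49 to 5.65) was called by limma. The unadjusted p was under 0.05 for 0 and 2 of these, and for 2402 of all 18193 genes. These are bulk samples, in which fewer cells of a type and less RNA per cell cannot be told apart. The part of these markers in the member values was not tested.

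Several of the members are known as targets of NF-κB itself, so promoters are shown for the κB sequences near the start. RefSeq promoter windows (GRCm38.p6) of 300 bases, from 250 before to 50 after the start, matched 7 of the 9 genes with 10 windows, of which 2 of the 3 for Nfkb2 overlap. Relb and Nfkbiz had none. The windows were searched on both strands for the κB consensus, a 10-base motif that begins with GGG and ends with CC. It stood in 8 of the 10 windows and in 6 of the 7 genes, against 4.51% of all 32851 windows in the table, and Rela was the gene without it. The looser pattern GGGNNNNNCC stood in 10 of 10 member windows and in 50.8% of all windows. A match to these letters is a description and no evidence of binding. The 6 genes with a match are printed from 150 bases before to 20 bases after the start, 5′ to 3′ on the strand of the gene, with bases covered by a κB consensus match on either strand in capitals.
Nfkb2 promoter, chr19:46304587-46304756, plus strand: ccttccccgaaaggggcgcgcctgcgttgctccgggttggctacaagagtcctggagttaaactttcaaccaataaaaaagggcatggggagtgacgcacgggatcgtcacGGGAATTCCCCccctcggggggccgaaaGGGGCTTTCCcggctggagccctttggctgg
Rel promoter, chr11:23770950-23771119, minus strand: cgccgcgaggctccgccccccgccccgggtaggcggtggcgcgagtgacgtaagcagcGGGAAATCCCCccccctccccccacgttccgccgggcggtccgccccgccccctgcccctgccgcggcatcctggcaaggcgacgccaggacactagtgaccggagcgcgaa
Nfkbia promoter, chr12:55492628-55492797, minus strand: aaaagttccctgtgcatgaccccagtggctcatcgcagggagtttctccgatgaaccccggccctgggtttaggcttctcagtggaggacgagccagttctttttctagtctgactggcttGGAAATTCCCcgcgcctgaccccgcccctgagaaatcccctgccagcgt
Nfkbie promoter, chr17:45555550-45555719, plus strand: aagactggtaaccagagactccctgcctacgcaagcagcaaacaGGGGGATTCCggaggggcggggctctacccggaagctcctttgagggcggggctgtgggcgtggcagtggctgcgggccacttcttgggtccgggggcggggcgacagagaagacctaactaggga
Bcl3 promoter, chr7:19822736-19822905, minus strand: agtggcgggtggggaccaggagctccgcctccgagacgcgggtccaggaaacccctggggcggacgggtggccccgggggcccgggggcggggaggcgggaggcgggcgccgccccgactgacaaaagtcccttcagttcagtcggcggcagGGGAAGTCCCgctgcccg
Tnfaip3 promoter, chr10:19015391-19015560, minus strand: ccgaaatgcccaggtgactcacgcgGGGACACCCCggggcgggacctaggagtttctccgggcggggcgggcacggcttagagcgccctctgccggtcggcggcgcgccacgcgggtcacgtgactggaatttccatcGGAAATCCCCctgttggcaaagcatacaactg

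The κB matches of Nfkbia, which encodes IκBα, and Tnfaip3, which encodes A20, lay within 29 bases before the start (first base at −29 and at −12). Tnfaip3 had a further match at −125. Nfkb2, which encodes p100, had matches at −39 and −11 at the start printed here and at −236 and 11 at start 2. The match at −225 of start 3 is that at 11 of start 2, since these windows overlap. The Rel match began at −92, that of Nfkbie at −106, and that of Bcl3 at base 3 after the start. RNA of these genes moved in different directions over stimulation. Bcl3 was higher, Rel and Tnfaip3 were lower, and the sign for Nfkbia depended on the scaling.

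Over stimulation most of the pathway's own RNA was lower at day 2, with Bcl3 as the exception. In wild type cells 15 of the 18 member probe sets were called lower and 1 higher at an adjusted p under 0.05 (limma, quantile-normalized values), while 26.1% of all probe sets were called lower and 30.7% higher. In transgenic cells 16 were called lower and 1 higher, against 25.1% and 30.1% of all. Counted with 1 probe set per gene, 8 of 9 member genes were called lower and Bcl3 higher in both genotypes. Among all genes 24% were called lower and 36% higher in wild type, and 23.3% and 35.2% in transgenic cells. The median change of the 9 member genes came to −0.84 in wild type and to −0.88 in transgenic cells, beside 0.080 and 0.083 over all genes. With array medians subtracted the medians were −0.087 and −0.35 beside 0.26 and 0.28 over all genes, and 3 member genes were called lower and 2 higher in wild type, and 5 lower and 2 higher in transgenic cells. The changes of the 2 genotypes were taken from separate arrays. The quantile normalization and the spread behind each SE, however, were taken over the arrays of both genotypes. The calls of the 2 genotypes are therefore not independent.

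These counts depended on the scaling of the arrays, and which scaling is right was not tested. The median change over all probe sets was −0.40 in both genotypes on deposited values, and 0.22 (wild type) and 0.24 (transgenic) with array medians subtracted. With array medians subtracted, 7 member probe sets were called lower and 5 higher in wild type, and 8 lower and 3 higher in transgenic cells. On deposited values the counts were 14 lower and 1 higher in wild type, and 16 lower and 1 higher in transgenic cells. Called the same way under all 3 scalings were 7 lower and 1 higher in wild type cells, which is 38.9% and 5.56% of the member probe sets beside 19.5% and 13.6% of all. In transgenic cells 8 were lower and 1 higher under all 3, which is 44.4% and 5.56% beside 17.9% and 13.1%. Counted by gene, 3 of 9 were lower and 1 higher under all 3 in wild type, when 16.2% and 18.3% of all genes were, and 5 lower and 1 higher in transgenic cells, when 15% and 17.7% of all genes were. Rel, the Nfkbiz probe sets 1417483_at and 1457404_at and both Tnfaip3 probe sets were lower, and Bcl3 higher, under all 3 scalings in both genotypes.

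**Figure D1:**
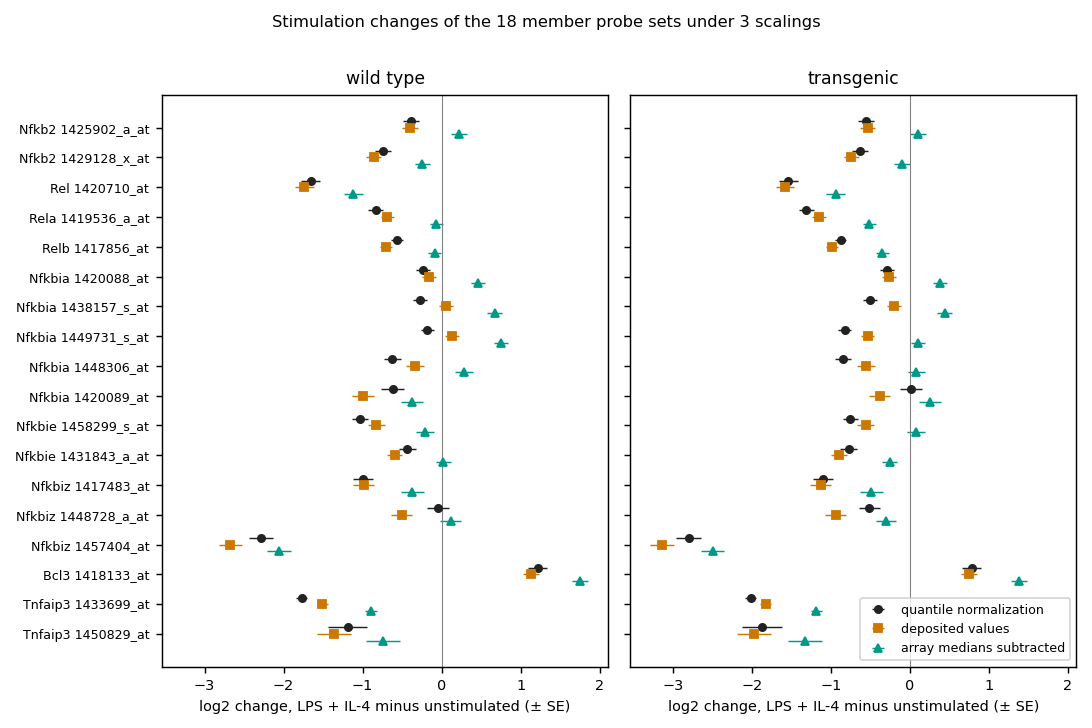
Change of each of the 18 member probe sets from unstimulated to stimulated cells (log2, x axis) in wild type and in transgenic cells, under the 3 scalings of the arrays, with SE bars. Bcl3 lies above 0 and Rel, Tnfaip3 and Nfkbiz 1457404_at below 0 under every scaling, while Nfkbia lies on both sides of 0.

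Of the subunits, Rel fell furthest. It encodes c-Rel, the subunit most tied to lymphocyte activation. Deposited levels were 9.89, 9.83 and 9.79 in unstimulated and 8.07, 8.12 and 8.11 in stimulated wild type arrays (replicates 1, 2 and 3 in this and all later lists). In transgenic arrays they were 10.04, 9.81 and 9.54 unstimulated and 8.25, 8.37 and 8.03 stimulated. Every stimulated array lay below every unstimulated one in both genotypes, and the genotypes overlapped in each state. Rel fell over stimulation by a quantile-normalized change of −1.66 ± 0.12 in wild type (SE, adjusted p = 5.74e-08) and −1.54 ± 0.12 in transgenic cells (adjusted p = 1.34e-07), a 3.16-fold fall in wild type.

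Rela encodes p65, the transactivating subunit of the classical p50 and p65 dimer. Its deposited levels were 10.33, 10.40 and 10.54 in unstimulated and 9.59, 9.74 and 9.88 in stimulated wild type arrays. Transgenic arrays read 10.65, 10.73 and 10.76 unstimulated and 9.60, 9.55 and 9.53 stimulated. The transgenic arrays were thus above all wild type arrays before stimulation, and they overlapped them after it. The quantile-normalized change over stimulation was −0.84 ± 0.090 in wild type (adjusted p = 3.57e-06) and −1.31 ± 0.090 in transgenic cells (adjusted p = 5.31e-08). With array medians subtracted the wild type change was −0.07 and not called, while that of transgenic cells was called lower under all 3 scalings.

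Relb and Nfkb2 form the dimer of the alternative pathway, Relb as RelB and Nfkb2 as p100, which is processed to p52 and in its whole form acts as an inhibitor. Relb read 9, 9.11 and 8.98 in unstimulated and 8.29, 8.34 and 8.35 in stimulated wild type arrays. In transgenic arrays it read 9.12, 9.23 and 9.01 unstimulated and 8.18, 8.10 and 8.11 stimulated. Relb was lower after stimulation in every array of both genotypes, and the quantile-normalized change was −0.56 ± 0.074 in wild type (adjusted p = 2.29e-05) and −0.88 ± 0.074 in transgenic cells (adjusted p = 3.75e-07). The wild type fall was not called with array medians subtracted, where it was −0.087.

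The Nfkb2 probe set with the highest mean, 1425902_a_at, read 9.35, 9.41 and 9.51 in unstimulated and 9.02, 8.98 and 9.07 in stimulated wild type arrays. Transgenic arrays read 9.35, 9.66 and 9.42 unstimulated and 8.81, 8.91 and 9.11 stimulated. Stimulated arrays were the lower ones in both genotypes as deposited, but the sign of the change depended on the scaling. After quantile normalization wild type changed by −0.39 ± 0.10 (adjusted p = 0.00494) and transgenic cells by −0.55 ± 0.10 (adjusted p = 0.000435), and with array medians subtracted the changes were 0.22 and 0.11. The second probe set, 1429128_x_at, whose suffix marks probes that can bind other transcripts, fell by −0.75 ± 0.10 in wild type (adjusted p = 3.24e-05) and −0.63 ± 0.10 in transgenic cells (adjusted p = 0.000146), and was called lower under all 3 scalings in wild type but not in transgenic cells. The difference between the genotypes' changes was 0.12 ± 0.14 for it (adjusted p = 0.773).

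**Figure D2:**
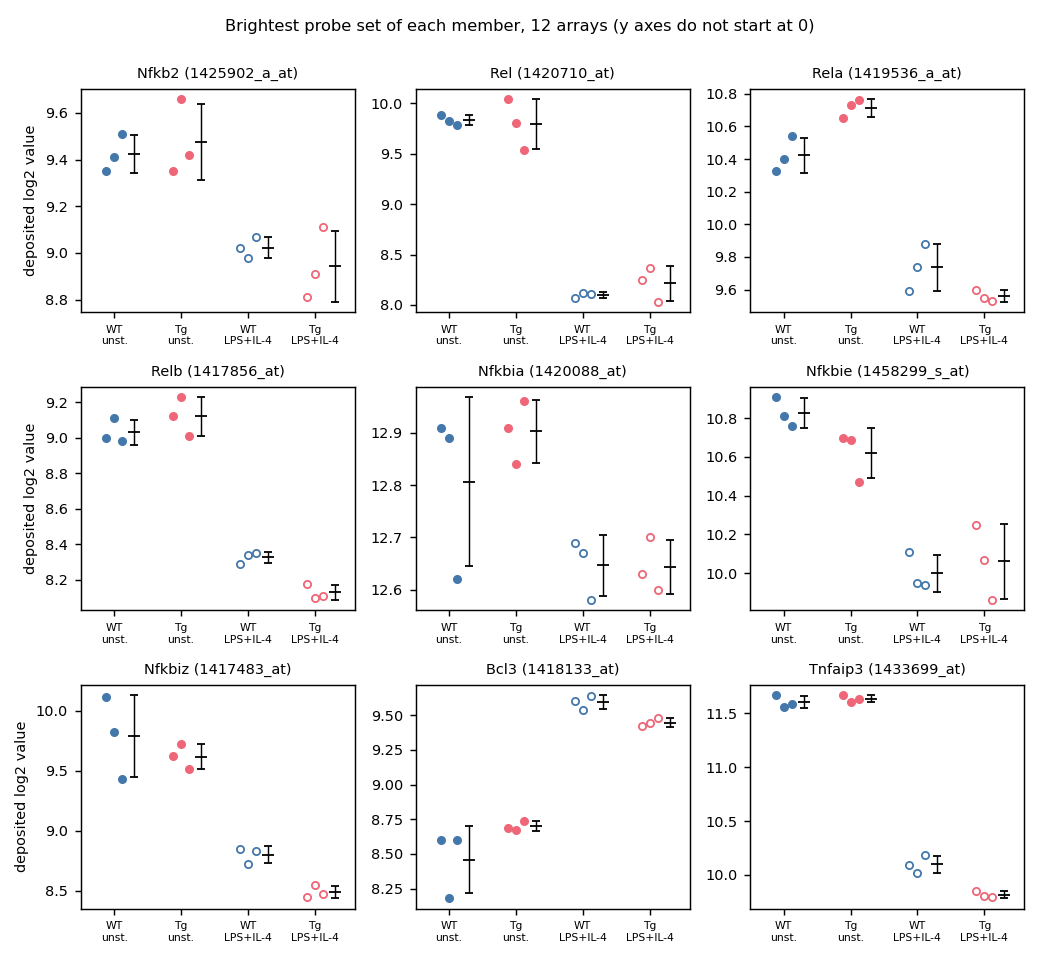
Deposited log2 level (y axis) of the probe set that stands for each of the 9 member genes, 1 point per array in the 4 groups of genotype and state, with the mean and SD of each group beside them. Bcl3 is the only one of the 9 whose stimulated arrays all lie above its unstimulated arrays, and Rel and Tnfaip3 show the widest gaps in the other direction.

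Bcl3 encodes a nuclear IκB protein that binds p50 and p52 homodimers and can turn them into activators. Its deposited levels were 8.60, 8.18 and 8.60 in unstimulated and 9.60, 9.54 and 9.64 in stimulated wild type arrays. In transgenic arrays they were 8.69, 8.67 and 8.74 unstimulated and 9.42, 9.44 and 9.48 stimulated. Every stimulated array was above every unstimulated one. Transgenic arrays were all above wild type before stimulation and all below wild type after it. The rise over stimulation was 1.21 ± 0.12 in wild type (quantile-normalized log2, 2.32-fold, adjusted p = 1.13e-06) and 0.78 ± 0.12 in transgenic cells (1.72-fold, adjusted p = 7.28e-05). The difference between these rises was −0.39 ± 0.14 on deposited values and was not called (adjusted p = 0.253).

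Tnfaip3 encodes A20, a ubiquitin-editing enzyme that switches off signalling to the IκB kinases. Its probe set 1433699_at read 11.67, 11.56 and 11.59 in unstimulated and 10.09, 10.02 and 10.18 in stimulated wild type arrays. Transgenic arrays read 11.67, 11.61 and 11.63 unstimulated and 9.85, 9.80 and 9.79 stimulated. The unstimulated genotypes overlapped, and the stimulated transgenic arrays lay below all stimulated wild type arrays. Tnfaip3 fell over stimulation by a quantile-normalized change of −1.77 ± 0.069 in wild type (3.41-fold lower, adjusted p = 2.59e-10) and −2.01 ± 0.069 in transgenic cells (4.04-fold lower, adjusted p = 1.08e-10).

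The other Tnfaip3 probe set, 1450829_at, was spread more widely in unstimulated wild type cells, at 8.51, 9.70 and 9.33, where replicate 1 is the array with the lowest actin ratio. The part of that ratio in this value was not tested. It read 9.63, 9.93 and 9.66 in unstimulated transgenic, 7.85, 7.88 and 7.72 in stimulated wild type and 7.70, 7.70 and 7.91 in stimulated transgenic arrays. It also fell, by −1.19 ± 0.25 in wild type (adjusted p = 0.00123) and −1.87 ± 0.25 in transgenic cells (adjusted p = 3.02e-05).

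Nfkbiz encodes IκBζ, a nuclear IκB protein induced by LPS that helps transcribe secondary response genes such as Il6. Its probe set 1417483_at read 10.11, 9.82 and 9.43 in unstimulated and 8.85, 8.72 and 8.83 in stimulated wild type arrays. In transgenic arrays it read 9.62, 9.72 and 9.51 unstimulated and 8.45, 8.55 and 8.47 stimulated. The genotypes overlapped before stimulation, and after it the transgenic arrays were all below the wild type arrays. The quantile-normalized change over stimulation was −0.99 ± 0.13 in wild type (adjusted p = 2.06e-05) and −1.10 ± 0.13 in transgenic cells (adjusted p = 8.28e-06).

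A second Nfkbiz probe set, 1457404_at, showed the largest change of all member probe sets, −2.29 ± 0.15 in wild type (adjusted p = 3.97e-08) and −2.80 ± 0.15 in transgenic cells (adjusted p = 6.65e-09). Its stimulated arrays read 6.33, 6.21 and 5.85 in wild type and 5.85, 5.69 and 5.34 in transgenic cells, from unstimulated levels between 8.61 and 8.98 in both genotypes. The third, 1448728_a_at, changed by −0.049 ± 0.14 in wild type and was not called (adjusted p = 0.780), but was called lower on deposited values (−0.50, adjusted p = 0.00395) and lay at 0.11 with array medians subtracted. In transgenic cells it was called lower, by −0.51 ± 0.14 (adjusted p = 0.00620), and not with array medians subtracted (−0.30, adjusted p = 0.0545). Its interaction was not called (−0.44 ± 0.19, adjusted p = 0.341). The 3 probe sets of Nfkbiz thus differed in the size of their change, and the call of the third depended on the scaling.

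Nfkbie encodes IκBε, an inhibitor that holds c-Rel and p65 dimers and is replaced more slowly than IκBα. Probe set 1458299_s_at read 10.91, 10.81 and 10.76 in unstimulated and 10.11, 9.95 and 9.94 in stimulated wild type arrays, and 10.70, 10.69 and 10.47 unstimulated and 10.25, 10.07 and 9.86 stimulated in transgenic arrays. Its quantile-normalized change was −1.04 ± 0.098 in wild type (adjusted p = 1.08e-06) and −0.75 ± 0.098 in transgenic cells (adjusted p = 2.42e-05). With array medians subtracted it was −0.21 in wild type, and the sign turned to 0.080 in transgenic cells. The other probe set, 1431843_a_at, read 8.78 to 9.01 and 8.23 to 8.35 in wild type and 8.85 to 9.19 and 8.10 to 8.25 in transgenic arrays, unstimulated and stimulated. It was lower by −0.43 ± 0.11 in wild type, where the sign turned to 0.023 with array medians subtracted, and by −0.78 ± 0.11 in transgenic cells, where it was called lower under all 3 scalings.

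Nfkbia encodes IκBα, the inhibitor that NF-κB induces most directly, and has 5 probe sets that disagreed with each other. The one with the highest mean, 1420088_at, read 12.91, 12.89 and 12.62 in unstimulated and 12.69, 12.67 and 12.58 in stimulated wild type arrays. Transgenic arrays read 12.91, 12.84 and 12.96 unstimulated and 12.63, 12.70 and 12.60 stimulated. Wild type states overlapped on this scale, through the unstimulated replicate 3, and transgenic states did not. It changed by −0.24 ± 0.089 in wild type and by −0.29 ± 0.089 in transgenic cells after quantile normalization (adjusted p = 0.0383 and 0.0130), but 0.46 and 0.38 with array medians subtracted. The wild type call was lost without unstimulated replicate 1 (adjusted p = 0.133) or 2 (0.107), and without stimulated replicate 2 (0.0589) or 3 (0.138).

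Of the other Nfkbia probe sets, 1448306_at read 11.19, 11.20 and 11.39 in unstimulated and 10.83, 10.96 and 10.99 in stimulated wild type arrays, and 11.20, 11.58 and 11.43 and then 10.76, 10.74 and 11.04 in transgenic arrays. It was lower by −0.62 ± 0.11 in wild type and −0.85 ± 0.11 in transgenic cells, and turned to 0.28 and 0.083 with array medians subtracted. Probe set 1438157_s_at was lower by −0.28 ± 0.091 and −0.51 ± 0.091, but its wild type change was 0.057 on deposited values, and both turned with array medians subtracted, to 0.67 and 0.44. The wild type fall was not called without unstimulated replicate 1 (adjusted p = 0.0835) or stimulated replicate 3 (0.0801). The dimmest, 1420089_at, was lower in wild type under all 3 scalings (−0.62 ± 0.14, adjusted p = 0.00211). In transgenic cells its change was 0.012 ± 0.14 after quantile normalization (adjusted p = 0.951), and −0.38 on deposited values.

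By genotype, 1 of the 18 member probe sets was called in unstimulated cells, when 9.45% of all probe sets were called, and none in stimulated cells (adjusted p under 0.05, limma), when 1.86% were. An unadjusted p under 0.05 was seen for 7 member probe sets in unstimulated and 4 in stimulated cells, and for 10872 and 5001 of all 45037 probe sets. Counted with 1 probe set per gene, none of the 9 member genes was called in either state by limma. The unadjusted p was under 0.05 for 2 and 3 of them, and for 4604 and 2402 of all 18193 genes. Among all genes 5.45% were called higher and 4.9% lower in unstimulated, and 1.24% and 1.1% in stimulated transgenic cells. The ranges of the genotypes lay apart for 6 member probe sets in unstimulated cells (24.3% of all probe sets) and for 4 in stimulated cells (19% of all). The median difference of the 18 was 0.093 in unstimulated cells (0.0067 over all probe sets) and −0.098 in stimulated cells (0.0067 over all).

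The probe set called by genotype was Nfkbia 1449731_s_at, whose suffix marks probes that match several transcripts of related sequence. It read 11.23, 11.02 and 11.16 in unstimulated wild type and 11.62, 11.72 and 11.66 in unstimulated transgenic arrays. After stimulation it read 11.26, 11.37 and 11.17 in wild type and 11.21, 11.01 and 11.18 in transgenic arrays. The unstimulated transgenic arrays stood above the other 9 arrays, which overlapped one another. The difference was 0.53 ± 0.086 in unstimulated cells (1.44-fold higher in transgenic, adjusted p = 0.00209) and −0.13 ± 0.086 in stimulated cells (adjusted p = 0.669). Over stimulation its quantile-normalized change was −0.18 ± 0.083 in wild type (adjusted p = 0.0798, and 0.0325 without unstimulated replicate 2) and −0.83 ± 0.083 in transgenic cells (adjusted p = 2.05e-06), and both turned with array medians subtracted, to 0.75 and 0.11. On deposited values the wild type change was 0.13, so that 2 of the 3 scalings put it above 0, and that of transgenic cells was −0.53. The interaction, the difference between the genotypes' changes over stimulation, was −0.66 ± 0.12 (adjusted p = 0.0165). This call was lost without stimulated wild type replicate 2 (−0.61, adjusted p = 0.0534), and 1.58% of all probe sets were called for the interaction.

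None of the other probe sets of Nfkbia was called for this difference. In unstimulated cells they differed by 0.097 ± 0.086 (1420088_at), 0.21 ± 0.090 (1438157_s_at), 0.14 ± 0.11 (1448306_at) and −0.36 ± 0.14 (1420089_at), with adjusted p of 0.547, 0.165, 0.483 and 0.125. For 1420089_at the arrays did not overlap and transgenic was the lower group, at 7.96, 7.66 and 8.01 against 8.46, 8.15 and 8.09. The 95% interval of 1420088_at ran from −0.090 to 0.28, so that it did not reach the 0.53 of 1449731_s_at. The intervals of 1438157_s_at (0.019 to 0.41) and 1448306_at (−0.099 to 0.39) overlapped that of 1449731_s_at (0.34 to 0.72). Whether the probe sets differ from each other was not tested. The gene symbol is the same for all 5, and their target stretches are not used here.

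**Figure D3:**
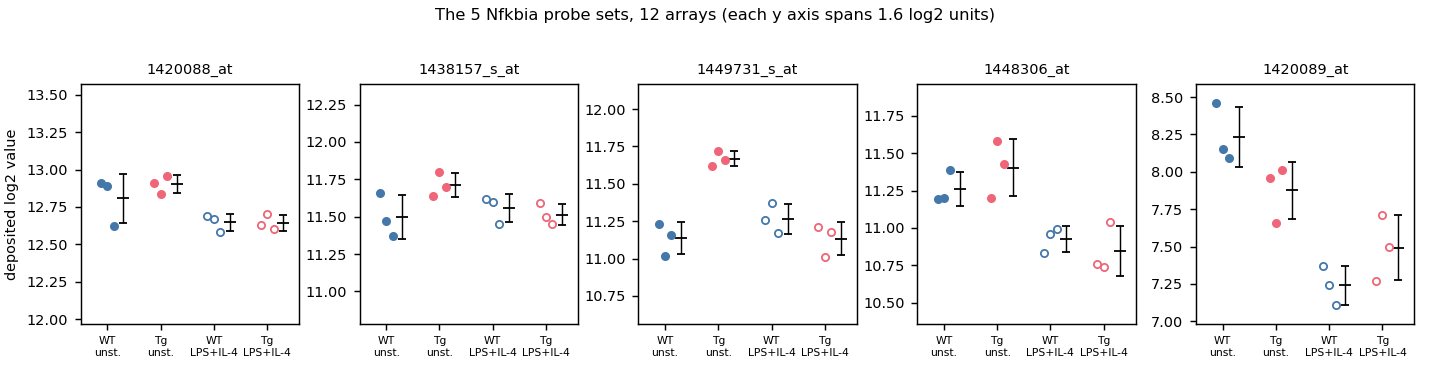
Deposited log2 level (y axis) of the 5 Nfkbia probe sets, 1 panel each with its own range of equal span, 1 point per array in the 4 groups of genotype and state, with the mean and SD of each group. The unstimulated transgenic arrays stand above all others for 1449731_s_at (11.62 to 11.72) and below the unstimulated wild type arrays for 1420089_at (7.66 to 8.01).

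The genes whose representative probe set varied most like 1449731_s_at over the 12 arrays, after each state's mean was subtracted, were Naaa (Pearson r = 0.948), Eomes (0.939) and Rpl7a (0.932). These are descriptions, since the points share arrays, and the part of the genotype difference in them was not tested.

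Of the members not called by genotype, Rela came closest in unstimulated cells. The difference was 0.29 ± 0.087 (1.22-fold, adjusted p = 0.0548) on arrays that did not overlap. It passed after quantile normalization (0.35, adjusted p = 0.0274) and without unstimulated wild type replicate 3 (0.35, adjusted p = 0.0237), and, through the shared spread, without stimulated wild type replicate 1 (adjusted p = 0.0444) or 3 (0.0468). In stimulated cells the difference was −0.18 ± 0.087 (adjusted p = 0.492). The interaction of Rela was −0.47 ± 0.12 and not called (adjusted p = 0.0908), but called without unstimulated wild type replicate 3 (−0.53, adjusted p = 0.0410).

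None of the remaining subunits was called by genotype. Rel differed by −0.04 ± 0.12 in unstimulated cells (95% interval −0.29 to 0.21) and by 0.12 ± 0.12 in stimulated cells (−0.14 to 0.37). Relb differed by 0.090 ± 0.076 (−0.074 to 0.25) in unstimulated cells. In stimulated cells Relb differed by −0.20 ± 0.076 (−0.36 to −0.033) on arrays that did not overlap (limma adjusted p = 0.309). For Nfkb2 1425902_a_at the differences were 0.053 ± 0.099 (−0.16 to 0.27) and −0.08 ± 0.099 (−0.29 to 0.13). For Nfkb2 1429128_x_at they were −0.16 ± 0.098 and −0.037 ± 0.098.

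Among the inhibitors in unstimulated cells, Bcl3 (0.24 ± 0.10, adjusted p = 0.168) and Nfkbiz 1448728_a_at (0.32 ± 0.13, adjusted p = 0.163) had transgenic arrays all above wild type arrays, and Nfkbie 1458299_s_at (−0.21 ± 0.10, adjusted p = 0.253) had them all below. None of the 3 was called. The other Nfkbie probe set differed by 0.16 ± 0.098 (adjusted p = 0.340), in the opposite direction. Tnfaip3 1433699_at differed by 0.030 ± 0.070 (95% interval −0.12 to 0.18). Tnfaip3 1450829_at differed by 0.56 ± 0.22 with overlapping arrays (adjusted p = 0.134). With each array left out in turn the difference ran from 0.225 to 0.82, with adjusted p up to 0.379. The lowest value came without unstimulated wild type replicate 1, and it was called only without replicate 2 of that group (0.82, adjusted p = 0.0251). Nfkbiz 1417483_at differed by −0.17 ± 0.13 (adjusted p = 0.486). With each array left out it ran from −0.35 to −0.0083, with adjusted p up to 0.981. The value nearest 0 came without unstimulated wild type replicate 1, and it was called lower only without replicate 3 of that group (−0.35, adjusted p = 0.0353).

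In stimulated cells the 2 members nearest a call were both lower in transgenic cells. Tnfaip3 1433699_at differed by −0.28 ± 0.070 (adjusted p = 0.0652) on arrays that did not overlap, and passed without unstimulated wild type replicate 1 (adjusted p = 0.0453), which enters through the shared spread. Nfkbiz 1457404_at differed by −0.50 ± 0.15 (adjusted p = 0.131), with wild type replicate 3 and transgenic replicate 1 both at 5.85. Nfkbiz 1417483_at (−0.31 ± 0.13, adjusted p = 0.391) and Bcl3 (−0.15 ± 0.10, adjusted p = 0.706) did not overlap between the genotypes, with transgenic lower. Differences of the other Nfkbia probe sets ran from −0.08 to 0.25 and those of Nfkbie from −0.14 to 0.060, all with overlapping arrays.

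**Figure D4:**
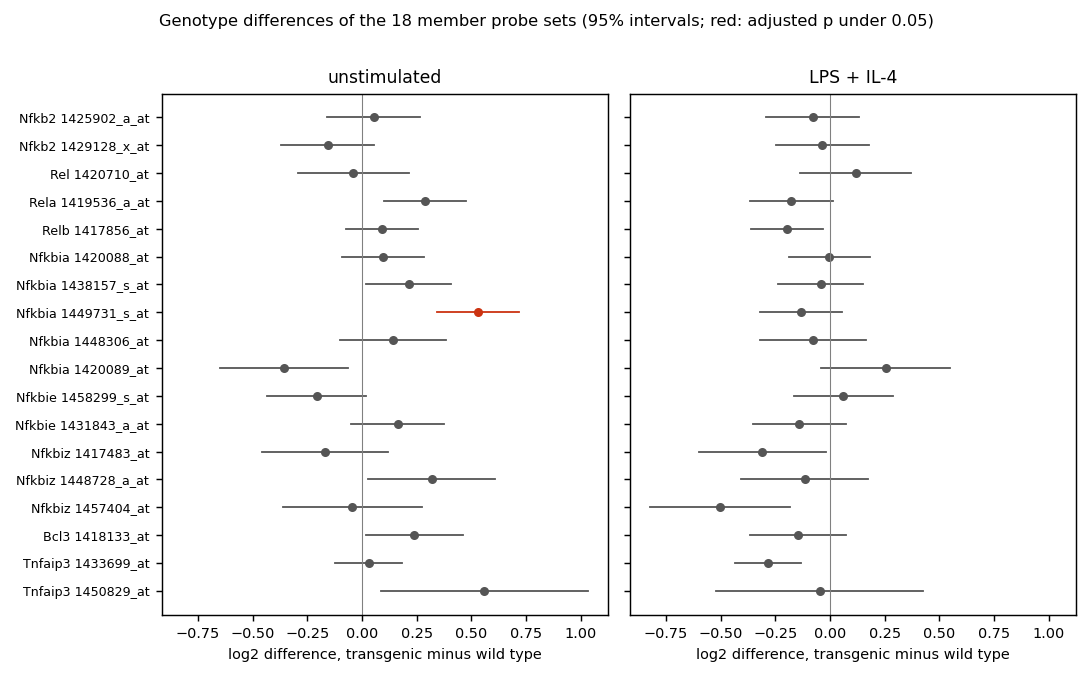
Difference between transgenic and wild type cells (log2, deposited values, x axis) of each of the 18 member probe sets, in unstimulated and in stimulated cells, with the 95% interval as a bar. Nfkbia 1449731_s_at in unstimulated cells, at 0.53, is the 1 difference that was called.

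The signs of the member differences were counted in each state. In unstimulated cells 12 of 18 lay above 0 and 6 below, and in stimulated cells 3 lay above 0 and 15 below. After quantile normalization the counts were 14 and 4 unstimulated, and 5 and 13 stimulated. With array medians subtracted they were 11 and 7, and 3 and 15. On deposited values 23174 of all 45037 probe sets lay above 0 unstimulated and 23538 stimulated. With 1 probe set per gene, 6 of 9 members lay above 0 unstimulated and 2 of 9 stimulated. The interaction lay below 0 for 14 of 18 probe sets under each of the 3 scalings, with a median of −0.27 on deposited values beside 0.0033 over all probe sets. Since several probe sets measure 1 gene, and the interaction takes up the same arrays as both genotype differences, these counts are a description. With 1 probe set per gene no member was called for the interaction by limma, when 0.588% of all genes were called higher and 1.39% lower. The unadjusted p was under 0.05 for 4 of 9 members and for 2728 of all 18193 genes. The interaction lay above 0 for 2 of the 9 members and for 8729 of all genes.

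Other regulators of NF-κB were read from 4 further lists, with 1 probe set per gene. Their counts stand beside these shares of all genes. Over stimulation 24% were called lower and 36% higher in wild type, and 23.3% and 35.2% in transgenic cells. Under all 3 scalings it was 16.2% and 18.3%, and 15% and 17.7%. Between genotypes 5.45% were called higher and 4.9% lower unstimulated, and 1.24% and 1.1% stimulated. For the interaction it was 0.588% higher and 1.39% lower. Among 11 measured inhibitors and regulators outside the members, Nfkbid stood out. It encodes IκBNS, a nuclear IκB protein that B cells need for plasma cell formation. Its mean level was 11.84 in unstimulated wild type, 12.02 in unstimulated transgenic, 9.86 in stimulated wild type and 9.28 in stimulated transgenic cells. It was lower in stimulated transgenic than in stimulated wild type cells (−0.57 ± 0.081, adjusted p = 0.00212), and its interaction was −0.75 ± 0.12 (adjusted p = 0.00558). Both calls held without each of the 12 arrays in turn, with adjusted p up to 0.0160 and 0.0216. Nfkbid fell over stimulation by −2.23 in wild type and −2.85 in transgenic cells (SE 0.075), and was called lower under all 3 scalings.

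Of the same 11 genes, 4 rose and 6 fell over stimulation in wild type and 4 rose and 5 fell in transgenic cells, with medians of −0.46 and −0.051. Both turned sign, to 0.11 and 0.40, with array medians subtracted, beside 0.26 and 0.28 over all genes. Under all 3 scalings 3 rose and 2 fell in wild type, and 3 rose and 3 fell in transgenic cells. Tax1bp1, an adaptor for A20, fell by −1.36 and −1.30, and Commd1, a factor in the removal of p65, rose by 0.92 and 0.91. Itch, a ubiquitin ligase that works with A20, was the 1 gene called between unstimulated genotypes (−0.51 ± 0.12, adjusted p = 0.0198). It was not called without unstimulated wild type replicate 2 (adjusted p = 0.0690), transgenic replicate 1 (0.0852) or transgenic replicate 3 (0.0784).

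Kinases and adaptors that lead to the IκB kinases were measured for 19 of 23 genes. Over stimulation 13 fell and 2 rose in wild type and 14 fell and 1 rose in transgenic cells. Their medians were −0.75 and −0.42, beside 0.080 and 0.083 over all genes. With array medians subtracted they were −0.21 and −0.16, beside 0.26 and 0.28 over all genes. Under all 3 scalings 8 fell and 1 rose in wild type, when 16.2% of all genes fell and 18.3% rose. In transgenic cells 5 fell and none rose, when 15% of all genes fell and 17.7% rose. Prkcb (protein kinase C beta) fell by −2.05 and −1.94, Malt1 (a paracaspase of antigen receptor signalling) by −1.97 and −1.67, and Ikbkb (the kinase IKKβ) by −1.60 and −1.31, each under all 3 scalings. In unstimulated transgenic cells 1 gene was called higher and 5 lower, and the lower ones numbered 2 to 3 without unstimulated wild type replicate 1 or 2 or any unstimulated transgenic replicate. Map3k8, the kinase Tpl2 (−0.69 ± 0.12, adjusted p = 0.00347), was called without each array in turn. Ikbke (0.51 ± 0.12, adjusted p = 0.0164) and Tab2 (−0.51 ± 0.13, adjusted p = 0.0234) were not called without unstimulated wild type replicate 2 (adjusted p = 0.0588 and 0.0635), transgenic replicate 1 (0.0550 and 0.0701) or transgenic replicate 3 (0.0589 and 0.0844). Tab2 was also not called without unstimulated wild type replicate 1 (0.0627) or transgenic replicate 2 (0.0521). None of the 19 was called by limma between stimulated genotypes or for the interaction. The unadjusted p was under 0.05 for 1 and 8 of them, and for 2402 and 2728 of all 18193 genes.

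On the Tlr4 route, measured for 12 of 14 genes, 4 rose and 6 fell over stimulation in wild type and 5 rose and 6 fell in transgenic cells, with medians of −0.43 and −0.30. These medians turned to 0.20 and 0.41 with array medians subtracted, beside 0.26 and 0.28 over all genes. Under all 3 scalings the counts were 3 and 2, and 2 and 3. Ly96, which encodes the LPS-binding partner MD-2, rose by 1.41 in wild type and 1.20 in transgenic cells, and Myd88, the adaptor of Toll-like receptors, by 1.01 and 0.62. Irak2, a kinase bound by Myd88, fell by −1.67 and −1.44. Between unstimulated genotypes Cd14, an LPS co-receptor that is also on the monocyte and macrophage marker list, was higher in transgenic cells (1.91 ± 0.20, adjusted p = 7.39e-05), and so was Myd88 (0.43 ± 0.077, adjusted p = 0.00404). Both were called without each array in turn. Between stimulated genotypes Cd14 (1.11 ± 0.20, adjusted p = 0.0112) and Irak3, an inhibitory member of the kinase family (0.37 ± 0.077, adjusted p = 0.0296), were called. Cd14 was not called without stimulated wild type replicate 3 (adjusted p = 0.0577), and Irak3 was not called without stimulated wild type replicates 1, 2 or 3 (0.110, 0.117 and 0.0661) or transgenic replicates 1 or 2 (0.0960 and 0.136).

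Known NF-κB target genes, 31 of 35 measured, moved in both directions over stimulation. In wild type 14 rose and 11 fell, and in transgenic cells 15 rose and 12 fell, with medians of 0.092 and 0.32 beside 0.080 and 0.083 over all genes. The medians were −0.053 and 0.11 on deposited values (−0.36 in both genotypes over all genes), and 0.56 and 0.75 with array medians subtracted (0.26 and 0.28 over all genes). Under all 3 scalings 14 rose in each genotype, and 8 (wild type) and 6 (transgenic) fell. The cytokine Il6 rose by 4.60 and 4.70 and the chemokine Ccl22 by 4.28 and 3.58, and the chemokine receptor Ccr7 fell by −4.16 and −4.19.

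Between unstimulated genotypes 8 targets were higher and 2 lower in transgenic cells, and 5 and 2 with array medians subtracted. Without unstimulated wild type replicate 2, transgenic replicate 1 or transgenic replicate 3 it was 5 higher, and 0 to 3 were lower over all 12 arrays left out in turn. The largest were Tnfaip2 (1.14 ± 0.21, adjusted p = 0.00484), the chemokine Ccl5 (0.95 ± 0.12, adjusted p = 0.000361) and the costimulatory ligand Cd86 (0.89 ± 0.095, adjusted p = 9.89e-05), each called without each array in turn. In stimulated cells 4 were higher and 2 lower, led by Ccl5 (1.13 ± 0.12, adjusted p = 0.000212), the chemokine Ccl3 (0.93 ± 0.12, adjusted p = 0.00107) and the cytokine lymphotoxin alpha, Lta (−0.68 ± 0.096, adjusted p = 0.00206). For the interaction 2 were higher and 5 lower, and the lower ones were 2 or 3 without any single array other than unstimulated wild type replicate 1 or 3. Ccl22 (−0.84 ± 0.17, adjusted p = 0.0316) was called in 3 of these 12 fits. Ccl3 (0.96 ± 0.17, adjusted p = 0.0143) and the cytokine subunit Ebi3 (−0.85 ± 0.12, adjusted p = 0.00259) were called without each array in turn. Between the genotypes some granulocyte and monocyte markers were called higher in transgenic cells in both states, as given above. Some erythroid and T and NK cell markers were called higher in unstimulated cells only. The part of all these markers in the differences of the targets was not tested.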

How the data were processed

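RNA of 12 samples (4 groups of 3 arrays) was measured on Affymetrix arrays. The log2 probe set levels that the authors deposited were made with RMA (affy), per the submitters' processing notes, without version numbers. The columns hold positive values with array medians that differ by state. Whether all arrays were normalized together, and the genome build of the annotation, are not given in the sources used here. The table has 45101 probe sets, of which the 64 array controls were dropped. A single symbol was given for 34945 of the rest, several for 932 and none for 9160. For counts over the 18193 genes, the probe set of highest mean represented a gene.

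The model was fitted to the 12 arrays in R 4.3.3 with limma 3.58.1, using a coefficient for each group, 8 residual and 4.71 prior degrees of freedom, and p-values adjusted by Benjamini and Hochberg over 45037 probe sets. A probe set was called at an adjusted p under 0.05, and tests were 2-sided. Genotype differences and the interaction used deposited values, and stimulation used quantile-normalized values. The script was tested on simulated data. The number of arrays limits the precision. No array was dropped or imputed in the values printed as the result.

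Same-numbered replicates of the stimulated genotypes deviated together (r = 0.33, 0.10 and 0.18 for replicates 1, 2 and 3), as did those of wild type over stimulation (0.32, 0.18 and 0.19). The numbers may thus pair those samples, but the labels name no pairing. The fits behind the printed results were unpaired, and the replicate block was run only as an alternative, for every comparison. The part of the actin signal of replicate 1 in these correlations was not tested. Between same-numbered replicates of the unstimulated genotypes r was 0.078, 0.070 and 0.30. For transgenic cells over stimulation it was 0.069, −0.16 and 0.12. Whether the numbers pair samples in these comparisons was not settled.

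Named are all member probe sets and, of each other list and comparison, up to 3 called genes with the largest change, with their values in other comparisons. For the member called by genotype, the 3 most similar genes are named. The members and the lists were chosen with earlier results of these data known. Of the listed genes, those without a probe set of their own symbol were not analysed here. Alternatives were other scalings, the replicate block, a trended robust prior, a mean level of at least 6, only the 6 arrays compared, leaving out each array, and the probe set with the largest interquartile range for a gene.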

Additional observations from a re-analysis of the deposited data

Results flagged for a closer look

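The change of Nfkbia probe set 1449731_s_at over stimulation differed between the genotypes by a test of the difference itself. The interaction was −0.66 ± 0.12 (log2, limma adjusted p = 0.0165, n = 3 arrays per group). Transgenic cells lay above wild type by 0.53 before stimulation (limma adjusted p = 0.00209). After it the difference was −0.13 on overlapping arrays and was not called (limma adjusted p = 0.669). The other 4 probe sets of the gene gave interactions of −0.10, −0.26, −0.22 and 0.61, none of them called. The call was lost without stimulated wild type replicate 2 (−0.61, adjusted p = 0.0534) and kept without each of the other 11 arrays.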

How the results depend on the processing

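In unstimulated cells the number of member probe sets called by genotype was 2 in place of 1 after quantile normalization, with the replicate block, with the trended robust prior and with a mean level of at least 6, and each time Rela was added (with the block, adjusted p = 0.0426). Nfkbia 1449731_s_at was called in all 18 alternatives run. In stimulated cells 1 was called in place of 0 with the trended robust prior and with a mean level of at least 6, which was Tnfaip3 1433699_at (adjusted p = 0.0388 and 0.0442). For transgenic stimulation 11 were called in place of 17 with array medians subtracted. The replicate block changed no other count of member calls. The cause of these changes was not tested.

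When each array was left out in turn, the member calls ran from 1 to 3 in unstimulated genotypes, from 0 to 1 in stimulated genotypes, from 14 to 16 in wild type stimulation, from 17 to 17 in transgenic stimulation, and from 0 to 2 for the interaction.

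Changes over stimulation that turned sign in wild type were, on deposited values, Nfkbia 1438157_s_at (0.057) and 1449731_s_at (0.13), and with array medians subtracted Nfkb2 1425902_a_at (0.22), Nfkbia 1420088_at (0.46), 1438157_s_at (0.67), 1449731_s_at (0.75) and 1448306_at (0.28), Nfkbie 1431843_a_at (0.023) and Nfkbiz 1448728_a_at (0.11). In transgenic cells they were, on deposited values, Nfkbia 1420089_at (−0.38), and with array medians subtracted Nfkb2 1425902_a_at (0.11), Nfkbia 1420088_at (0.38), 1438157_s_at (0.44), 1449731_s_at (0.11) and 1448306_at (0.083) and Nfkbie 1458299_s_at (0.080). No genotype difference that was called turned sign.

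Over all probe sets, 4256 were called between unstimulated genotypes (2013 higher, 2243 lower). The number was 1908 with only the 6 arrays compared, 7518 without wild type replicate 3, 2611 without transgenic replicate 1 and 2174 without transgenic replicate 3, and the split was 1550 and 2719 with array medians subtracted. Between stimulated genotypes 839 were called, and 452 to 1272 with 1 array left out, and for the interaction 710 and 388 to 1418. Over stimulation 13813 were higher and 11748 lower in wild type, 6363 and 29192 on deposited values, and 21383 and 8794 with array medians subtracted. In transgenic cells these were 13556 and 11284, 6181 and 29226, and 22217 and 8104. With a mean level of at least 6, 20208 probe sets were tested and 14526 (wild type) and 14245 (transgenic) called in all.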
